A study of Homo sapiens with 6 samples.

Results

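The genes described here are 30 genes of G2 phase and mitosis, taken by symbol from a list fixed for this work (MKI67, TOP2A, CCNA2, CCNB1, CCNB2, CDK1, CDC20, CDC25B, CDC25C, PLK1, AURKA, AURKB, BUB1, BUB1B, BIRC5, CENPA, CENPE, CENPF, TPX2, KIF11, KIF20A, KIF23, NUSAP1, UBE2C, PTTG1, HMMR, ASPM, DLGAP5, NDC80 and TTK). All 30 matched an Ensembl gene ID in the deposited table of 60664 IDs, and 29 of them were among the 16102 genes that passed the low-count filter. RNA was sequenced from the human colorectal cancer line HCT-8, transfected either with the shNC plasmid, taken as the control, or with the shPNISR plasmid, a hairpin against PNISR, a gene for a serine- and arginine-rich nuclear protein. Each group held 3 libraries, both groups were grown in the same medium, and the labels give neither the time after transfection nor the state of the cell cycle. The labels do not say that libraries came from separate cultures, so p-values cover the spread among these 6 libraries alone, and that spread may be technical. In such bulk samples, fewer cells in G2 or mitosis and less RNA per cell cannot be told apart.

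Cells enter mitosis when cyclin B bound to CDK1 is switched on by CDC25 phosphatases, and they leave it when the anaphase-promoting complex marks cyclin B and securin for destruction. Many genes of this stage are transcribed late in the cycle by the MuvB core with B-MYB and FOXM1, which act at promoters that carry CCAAT boxes and an element called the cell cycle genes homology region. Their transcripts are abundant in dividing tumour cells and are used as markers of proliferation.

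Promoters are shown for the 2 members with the smallest p in the comparison of the groups, CCNA2 and ASPM, and the 2 with the highest level per kilobase, CDC20 and CCNB1. Each stretch covers 250 bases before to 50 bases after the start of the gene, from RefSeq on GRCh38.p14, and reads from 5′ to 3′ on the strand of the gene. The capitals mark CCAAT and TTTGAA, the latter the common form of the homology region, on either strand (ATTGG and TTCAAA on the other strand). The CCNA2 window is chr4:121823834-121824133 on the minus strand, that of ASPM chr1:197146620-197146919 on the minus strand, that of CDC20 chr1:43358731-43359030 on the plus strand, and that of CCNB1 chr5:69166900-69167199 on the plus strand.
CCNA2: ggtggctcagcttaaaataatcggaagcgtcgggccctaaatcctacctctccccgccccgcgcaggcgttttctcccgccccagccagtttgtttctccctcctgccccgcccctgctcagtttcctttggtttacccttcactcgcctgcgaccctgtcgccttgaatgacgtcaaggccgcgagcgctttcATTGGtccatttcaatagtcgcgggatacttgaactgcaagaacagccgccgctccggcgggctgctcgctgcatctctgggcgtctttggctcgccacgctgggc
ASPM: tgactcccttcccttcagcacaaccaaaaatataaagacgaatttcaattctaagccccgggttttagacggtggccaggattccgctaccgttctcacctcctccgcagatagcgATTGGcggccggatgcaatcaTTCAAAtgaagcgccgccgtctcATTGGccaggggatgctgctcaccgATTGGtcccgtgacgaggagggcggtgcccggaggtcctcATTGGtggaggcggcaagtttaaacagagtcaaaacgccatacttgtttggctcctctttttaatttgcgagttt
CDC20: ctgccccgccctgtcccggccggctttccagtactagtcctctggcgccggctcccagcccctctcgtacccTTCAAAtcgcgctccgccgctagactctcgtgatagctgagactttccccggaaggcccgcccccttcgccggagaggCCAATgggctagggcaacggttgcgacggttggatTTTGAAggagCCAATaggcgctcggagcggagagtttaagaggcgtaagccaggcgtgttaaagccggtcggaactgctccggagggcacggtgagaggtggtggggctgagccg
CCNB1: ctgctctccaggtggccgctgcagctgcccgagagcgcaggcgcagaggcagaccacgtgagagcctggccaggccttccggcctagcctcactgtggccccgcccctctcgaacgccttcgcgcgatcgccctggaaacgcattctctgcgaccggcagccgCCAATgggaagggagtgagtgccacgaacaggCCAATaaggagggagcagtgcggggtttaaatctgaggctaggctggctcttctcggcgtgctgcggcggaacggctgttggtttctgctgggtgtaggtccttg
The CCNA2 window held 1 CCAAT match, whose first base lay 56 bases before the start, and no TTTGAA match. ASPM held 4 CCAAT matches and 1 TTTGAA match, CDC20 held 2 of each, and CCNB1 held 2 CCAAT matches at 87 and 55 bases before the start and no TTTGAA. Over the list, 25 members had 34 windows in the table, and BIRC5, AURKA, TPX2, UBE2C and TTK had no entry. CCAAT stood in 27 of the 34 windows (79.4%) and in 34.6% of all 35116 windows, and TTTGAA in 19 (55.9%) and in 15.2% of all. Both stood in 17 member windows and in 5.90% of all windows. The windows of a gene with several starts can overlap. A match is a description of the letters in these windows. Only TTTGAA was searched for, so a window without it may still hold another form of the homology region.

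PNISR was lower in every library that received its hairpin. Its level was 55.3, 50.2 and 62.8 CPM in the shNC libraries and 18.5, 20.7 and 27.6 in shPNISR 1 to 3 (CPM, counts relative to library size, scaled between libraries with TMM factors). The log2 fold change was -1.33 ± 0.15 (SE, 3 libraries per group), with an adjusted p = 8.73e-05 by edgeR's quasi-likelihood test with Benjamini-Hochberg adjustment, two-sided. Library totals ran from 15049485 to 17977803 counts, and shNC 2 lay between the other shNC libraries and the shPNISR libraries on the first principal component (0.787 against -35.2 and -31.2, and 16.9 to 24.6).

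At an adjusted p of 0.05 in edgeR's quasi-likelihood fit, none of the 29 tested members rose or fell, where 2.3% of all tested genes were higher and 0.832% lower (3.14% in either direction). Their adjusted p ran from 0.195 for CCNA2 to 0.987 for CDC25B. At an unadjusted p under 0.05 there were 2 members, CCNA2 and ASPM, both with lower values in shPNISR, beside 7.79% of all tested genes lower, 9.98% higher and 17.8% either way, and DESeq2 and limma voom also called 0 members. Fitted log2 fold changes ran from -0.36 for ASPM to 0.15 for PTTG1 with a median of -0.07, and 24 of 29 were below 0. Over all tested genes the median was -0.01 and 52.1% were below 0. The member median was -0.11 without shNC 2 and also without shPNISR 2, and 20 members were below 0 without shPNISR 3. The groups did not overlap for 1 member, CCNA2, against 21.1% of all tested genes, and 9.58% of them in the lower direction.

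The main fit gave intervals for the 29 tested members, and these describe the 6 libraries alone. The 95% confidence interval of the fold change lay within 1.5-fold in either direction for 27 of the 29 members and within 2-fold for all 29. ASPM and MKI67 were the members whose interval reached past 1.5-fold, in both cases towards lower values in shPNISR. Standard errors ran from 0.10 to 0.22 on the log2 scale, with a median of 0.11 against 0.16 over all tested genes. Member counts were between 155 and 7069 per library. These intervals rest on 3 libraries per group and are not adjusted for the number of genes. They also belong to 1 fit, and fitted values moved with the setting. Over the 17 alternatives ASPM ran from -0.55 to -0.09 and MKI67 from -0.49 to -0.11 on the log2 scale. CENPF ran from -0.46 to -0.06 and CENPE from -0.32 to 0.09.

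**Figure D1:**
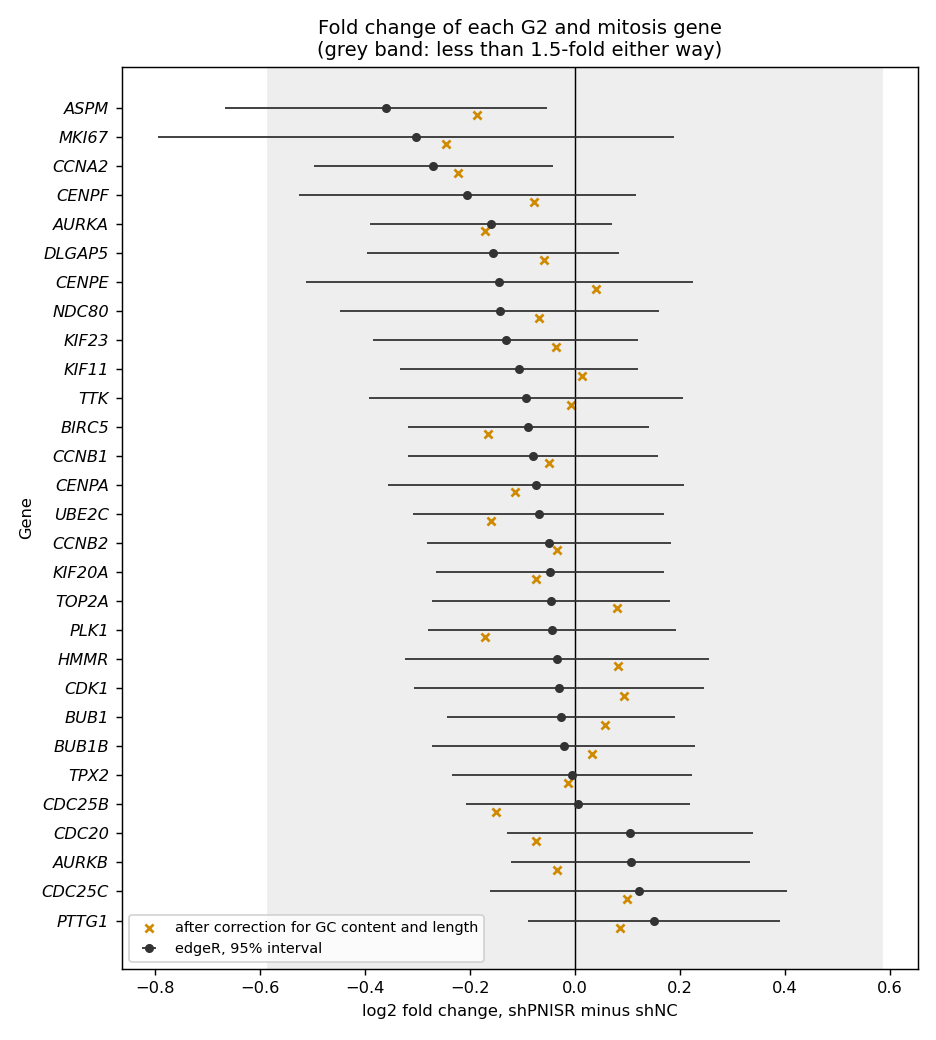
Fold change of each of the 29 tested members (x axis, log2 scale, shPNISR minus shNC; y axis, genes in order), with the 95% interval from edgeR as a line and the value after correction for GC content and exon length as a cross. The intervals of CCNA2 and ASPM alone leave out 0, and those of ASPM and MKI67 alone reach past the grey band, which marks changes under 1.5-fold.

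Levels among the members spanned 2 orders of magnitude once divided by exon length, and their order was nearly the same in both groups (Spearman's rho 0.996 over 29 genes of the same libraries). CDC20 stood highest at 146 ± 2.06 CPM per kilobase in shNC and 157 ± 18.2 in shPNISR (mean ± SD, n = 3 libraries). CCNB1 at 129 ± 10.3 and UBE2C at 126 ± 10.2 CPM per kilobase in shNC followed, and these 2 genes did not differ beyond their spread. TPX2 at 91.4 ± 4.28 and BIRC5 at 89.6 ± 4.35 formed the next pair, also within their spread. The lowest were ASPM at 3.57 ± 0.29 and CENPE at 1.33 ± 0.04 CPM per kilobase in shNC, which have among the longest exon sequences of the list. Exon length is the union of annotated exons, so a gene expressed mainly as a short isoform has a level per kilobase that is too low.

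**Figure D2:**
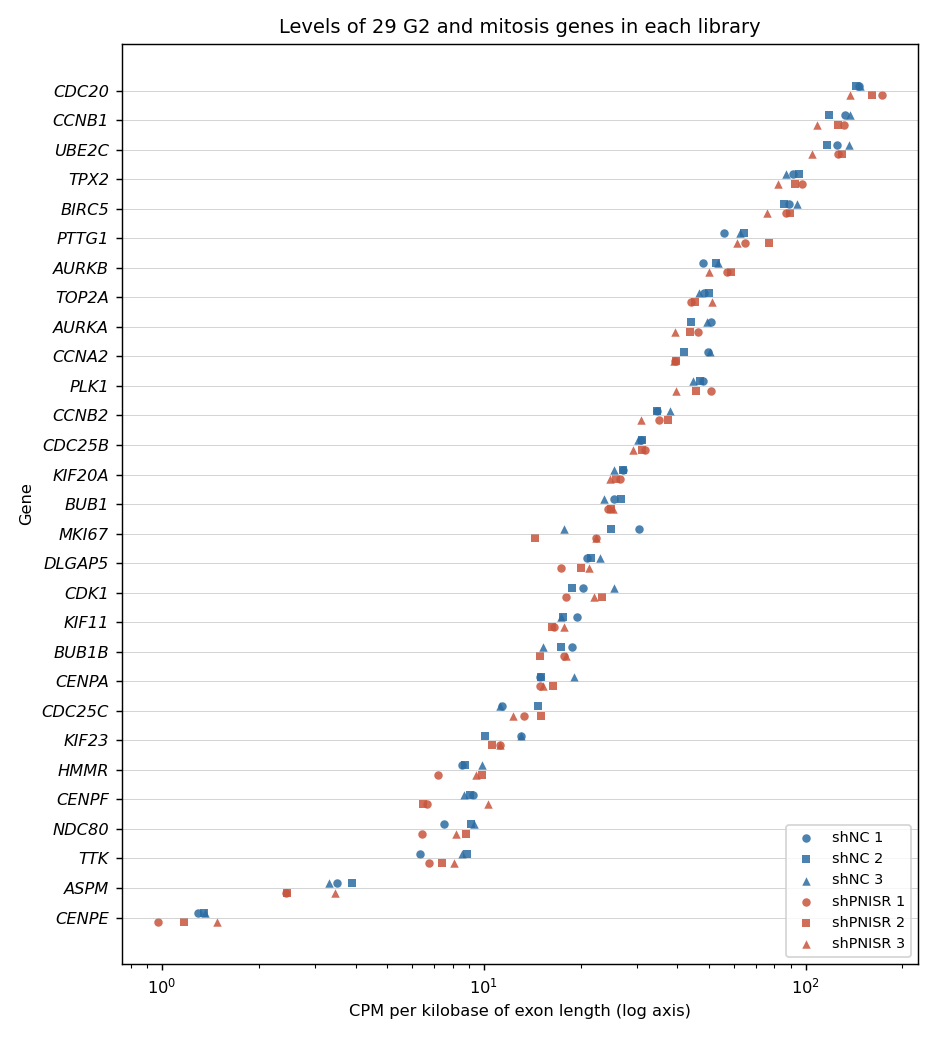
Level of each tested member in each library (x axis, CPM per kilobase of exon length, log axis; y axis, genes ordered by their shNC mean), with blue points for shNC and red points for shPNISR and a marker shape per replicate number. The points of the groups overlap for every member but CCNA2, and CDC20 is highest and CENPE lowest in all 6 libraries.

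Among the cyclins, CDK1 and the CDC25 phosphatases, none of 6 members passed, 4 had fitted values below 0, and the median was -0.04. CCNA2 encodes cyclin A2, which partners CDK2 and CDK1 through S phase and G2. Its level was 139, 117 and 142 CPM across the shNC libraries and 110, 111 and 109 across those of shPNISR. Every shPNISR library was below every shNC library, and shNC 2 was the nearest to them. The log2 fold change was -0.27 ± 0.11 (SE), and it did not pass edgeR's quasi-likelihood test (adjusted p = 0.195). Without shNC 2 CCNA2 fell by 0.35 on the log2 scale and passed (edgeR adjusted p = 0.0367), in a fit that called 4.52% of all genes lower. With shNC 2 left out and a loess correction for GC content and exon length it did not pass (adjusted p = 0.0573), and over the 17 alternatives the adjusted p ran from 0.0367 to 0.588. CCNA2 (ENSG00000145386) spans chr4:121816444-121823933 (GRCh38, minus strand), and 9.08% of its exon length overlaps EXOSC9 on the other strand, which had 637 to 838 counts per library.

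The B-type cyclins, which activate CDK1 for mitotic entry, had fitted values near 0. CCNB1 was at 339, 302 and 353 CPM in shNC and 337, 324 and 278 in shPNISR. CCNB2 was at 97.0, 96.6 and 106 CPM in shNC and 98.4, 104 and 86.5 in shPNISR. For both genes the lowest library was shPNISR 3 and the other shPNISR libraries fell among or close to the shNC values. CDK1, the kinase itself, was at 80.3, 73.9 and 100 CPM in shNC and 70.8, 91.9 and 86.3 in shPNISR, with groups that overlap throughout. CDC25B, a phosphatase that activates CDK complexes in G2, was at 133, 133 and 130 CPM in shNC and 137, 134 and 126 in shPNISR, with a narrow spread in shNC, and its interval was 86.5% to 116% of the shNC level. CDC25C, its relative that acts at mitotic entry, was at 38.1, 49.3 and 37.6 CPM in shNC and 44.5, 50.3 and 41.1 in shPNISR.

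The products of PLK1, AURKA, AURKB, BUB1, BUB1B and TTK act in spindle assembly and in the checkpoint that waits for attached kinetochores. None of these 6 members passed. AURKA, the centrosomal Aurora kinase, was at 149, 129 and 145 CPM in shNC and 135, 128 and 115 in shPNISR (log2 fold change -0.16 ± 0.11, SE, edgeR adjusted p = 0.469). AURKB, the Aurora kinase of the chromosomal passenger complex, was at 108, 118 and 120 CPM in shNC and 127, 131 and 112 in shPNISR (0.11 ± 0.11, adjusted p = 0.652). The paralogs had fitted values on opposite sides of 0, and in each the groups overlapped. PLK1, which acts from mitotic entry to cytokinesis, was at 229, 224 and 213 CPM in shNC and 241, 217 and 188 in shPNISR. The checkpoint kinase BUB1 was at 153, 161 and 142 CPM in shNC and 146, 149 and 152 in shPNISR, and its interval was 84.4% to 114% of the shNC level. BUB1B, which encodes the checkpoint protein BUBR1, and TTK, the checkpoint kinase MPS1, had log2 fold changes of -0.02 ± 0.12 and -0.09 ± 0.14.

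All 5 centromere, kinetochore and survivin genes had fitted values below 0 and none passed, with a median of -0.14. CENPF, a large kinetochore and nuclear matrix protein, was at 109, 106 and 102 CPM in shNC and 77.7, 75.7 and 121 in shPNISR. The shPNISR 1 and 2 libraries lay below all shNC libraries and shPNISR 3 above them. CENPE, a kinetochore motor, had the same order on a lower level, 12.2, 12.8 and 12.9 CPM in shNC and 9.18, 11.0 and 13.98 in shPNISR. NDC80, the microtubule-binding subunit of the outer kinetochore, was at 27.2, 32.8 and 33.5 CPM in shNC and 23.2, 31.8 and 29.6 in shPNISR. CENPA, the centromeric histone variant, and BIRC5, which encodes survivin of the passenger complex, had log2 fold changes of -0.07 ± 0.13 and -0.09 ± 0.11.

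Of the 8 spindle motors and spindle-binding proteins 7 were tested, all with fitted values below 0 and none past the test (median -0.11). ASPM, which focuses spindle poles, was at 38.2, 42.3 and 36.0 CPM in shNC and 26.5, 26.7 and 37.6 in shPNISR. Here too shPNISR 1 and 2 were below every shNC library while shPNISR 3 lay among them. The log2 fold change of ASPM was -0.36 ± 0.15 (SE, edgeR adjusted p = 0.198), and its interval was 63.0% to 96.3% of the shNC level. Without shPNISR 3 it was -0.55 (adjusted p = 0.0646). DLGAP5, which bundles spindle microtubules, was at 76.9, 79.0 and 84.0 CPM in shNC and 63.8, 73.6 and 77.8 in shPNISR. KIF11, the motor that separates the poles, was at 94.6, 85.8 and 84.8 CPM in shNC and 80.6, 79.3 and 86.3 in shPNISR. In both genes 1 shPNISR library, shPNISR 3, lay within the shNC range. TPX2, which activates AURKA on the spindle, had a log2 fold change of -0.01 ± 0.11, and KIF20A and KIF23, motors of the central spindle, -0.05 ± 0.10 and -0.13 ± 0.12, while HMMR, a spindle and hyaluronan-binding protein, was at -0.03 ± 0.14.

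NUSAP1, which binds and stabilises spindle microtubules, did not pass the low-count filter. The shNC libraries held 7, 2 and 5 of its reads and the shPNISR libraries 0, 5 and 12. On the same strand 62.2% of its exon length in GENCODE 29 belongs also to the gene AC087721.2, which was listed at 0 in all 6 libraries. No source used here says how reads that fall in 2 genes were counted, so the level of NUSAP1 in these cells cannot be read from the table. The part of this overlap in the low counts was not tested. No other member shares more than 11.6% of its exon length with 1 other gene, the value of PLK1 with the antisense gene AC008870.3 (1 to 8 counts per library).

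The genes of mitotic exit included members with fitted values above 0. PTTG1, the securin that holds separase in check, was at 113, 130 and 126 CPM in shNC and 130, 155 and 124 in shPNISR (0.15 ± 0.11 on the log2 scale, SE, edgeR adjusted p = 0.524). CDC20, the activator of the anaphase-promoting complex, was at 299, 293 and 301 CPM in shNC and 353, 327 and 280 in shPNISR. For CDC20 the shNC libraries lay close together, with shPNISR 1 and 2 above them and shPNISR 3 below. UBE2C, the ubiquitin-conjugating enzyme of that complex, was at 162, 150 and 176 CPM in shNC and 162, 167 and 135 in shPNISR. None of the 3 passed.

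The proliferation antigen MKI67 had the widest relative spread of the list in shNC (coefficient of variation 26.2%). It was at 390, 317 and 227 CPM in shNC and 287, 185 and 287 in shPNISR, so each group spanned about 100 CPM or more and the groups overlapped. Its log2 fold change of -0.30 had the largest standard error of the list (0.22, edgeR adjusted p = 0.512). It was -0.11 without shNC 1 (adjusted p = 0.916), -0.13 without shPNISR 2 (0.821) and -0.49 without shNC 3 (0.0513). TOP2A, the topoisomerase that untangles sister chromatids, was at 311, 324 and 300.5 CPM in shNC and 283, 291 and 331 in shPNISR, with a log2 fold change of -0.05 ± 0.11 and an interval of 82.8% to 113% of the shNC level.

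Member values differed among the shPNISR libraries. Against the mean of shNC, the median member difference on the log2 CPM scale was -0.06 in shPNISR 1, -0.03 in shPNISR 2 and -0.07 in shPNISR 3, and 19, 16 and 20 of 29 members were below 0. Scaled by library totals the shPNISR medians were -0.09, -0.06 and -0.01. In the shNC libraries the TMM-scaled medians were -0.003, 0.01 and 0.04. The SD over members was 0.20 in shPNISR 1, 0.23 in shPNISR 2 and 0.13 in shPNISR 3. In the shNC libraries it was 0.11 to 0.13, but each shNC library is part of the mean it is set against. That narrows its differences, so the SDs of the groups are not like measures. The lowest of the 6 libraries was shPNISR 3 for 11 members and shPNISR 1 for 8, and the highest was shNC 3 for 10. Summed over all 30 members, levels came to 4005 to 4134 CPM in shNC and 3760 to 3975 in shPNISR with TMM factors. Relative to library totals they came to 3985 to 4166 and 3798 to 3905, so the ranges did not touch on either scale. Taken singly, 21.1% of all tested genes also had groups that did not overlap, in either direction. MKI67, whose groups overlapped, went into this gap with means of 312 CPM in shNC and 253 in shPNISR. With TMM factors the gap, from 3975 to 4005 CPM, was narrower than the spread of MKI67 in shNC, 227 to 390 CPM. On that scale the gap is therefore not shown to hold without MKI67. The sum was not tested.

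Within single libraries of both groups, member differences were related to the length of the genes, and in the shPNISR libraries also to their base composition. The 4 longest members, CENPE, ASPM, CENPF and MKI67, with 9444 to 12807 bases of exon, had median differences from the shNC mean of -0.45 in shPNISR 1 and -0.51 in shPNISR 2 and of 0.05 in shPNISR 3. For the other 25 members these medians were -0.04, 0.003 and -0.07. Over the 29 members Spearman's rho between the difference and exon length was -0.46, -0.68 and 0.47 in shPNISR 1, 2 and 3, and over all tested genes it was -0.16, -0.36 and -0.0004. In shNC 1, 2 and 3 it was 0.37, 0.28 and -0.45 over the members, nearly as far from 0 in shNC 3 as in shPNISR 1. Over all tested genes it was 0.25, 0.05 and -0.29 in shNC 1, 2 and 3, further from 0 in shNC 3 than in shPNISR 1. With GC content rho was 0.14, 0.04 and -0.19 over the members in the shNC libraries, and -0.19, 0.26 and -0.14 over all tested genes. In the shPNISR libraries it was 0.84, 0.38 and -0.48 over the members and 0.51, 0.29 and 0.17 over all tested genes. These points share a library and the same shNC mean, and length and GC content were themselves related over the members (rho -0.43), so the values are a description.

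**Figure D3:**
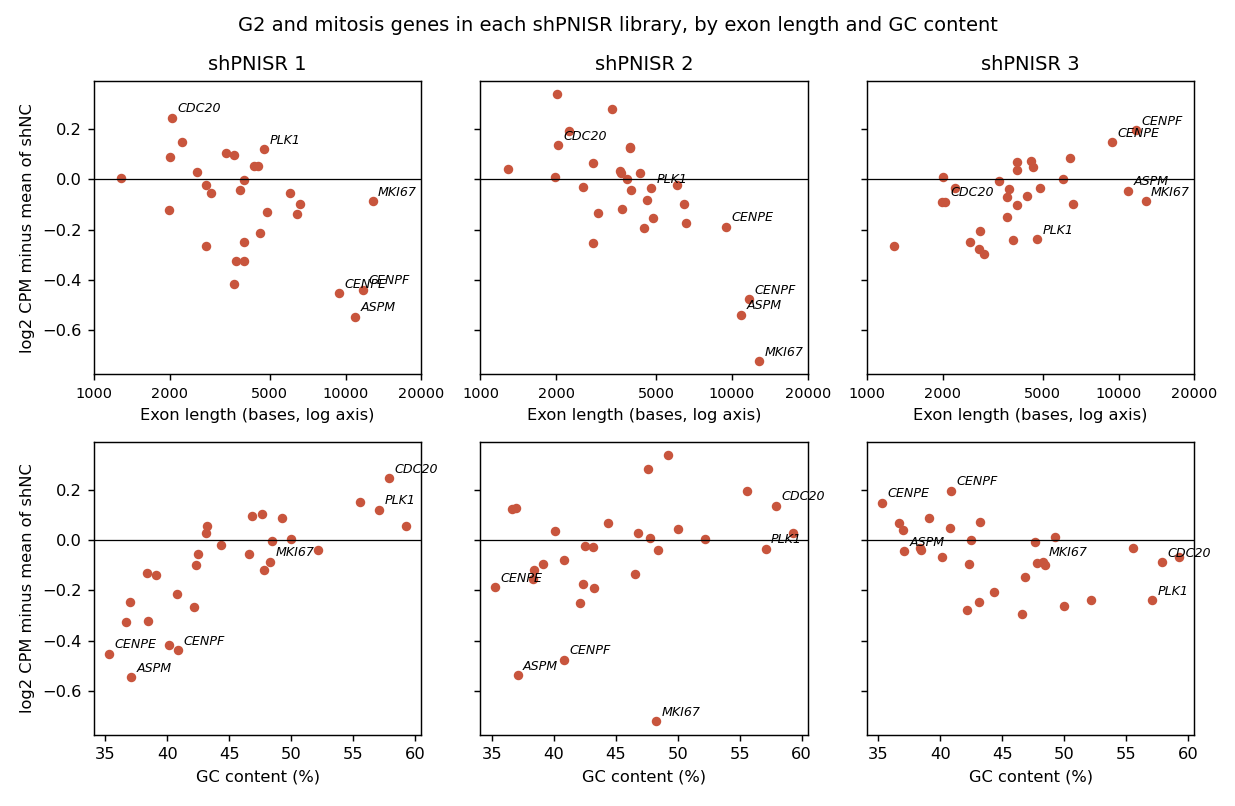
Difference of each tested member from the shNC mean (y axis, log2 CPM) in shPNISR 1, 2 and 3 (columns), against exon length in bases (top row, log axis) and GC content in percent (bottom row), 1 point per gene. CENPE, ASPM and CENPF lie far below 0 in shPNISR 1, and ASPM, CENPF and MKI67 do in shPNISR 2, while in shPNISR 3 the long genes lie near or above 0.

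After each library was corrected for GC content and exon length by loess, again no member passed edgeR's quasi-likelihood test (smallest adjusted p = 0.216). Of 29 fitted values 20 were below 0 with a median of -0.05. Over all tested genes the corrected median was -0.03, and 8931 of 16102 were below 0. CCNA2 was then at -0.22, ASPM at -0.19, MKI67 at -0.25 and CENPF at -0.08. CDC25B moved from 0.005 to -0.15, and CDC20 and AURKB changed sign, to -0.07 and -0.04. BUB1, BUB1B, CDK1, CENPE, HMMR, KIF11 and TOP2A changed sign the other way and stood between 0.01 and 0.09. The SD over members fell to 0.11 in shPNISR 1 and 0.16 in shPNISR 2 and rose from 0.13 to 0.14 in shPNISR 3. The median member difference from the shNC mean went from -0.06 to -0.03 in shPNISR 1. It went from -0.03 to -0.07 in shPNISR 2 and from -0.07 to -0.09 in shPNISR 3. Over all genes the correction gave 298 higher and 189 lower calls in place of 371 and 134. With the correction and without shNC 2, 17 of 29 members were below 0. The median was then -0.04 both for the members and for all tested genes. The correction was fitted without regard to group, so it can also remove part of a group difference that follows length or GC content. PNISR, the targeted gene, went from -1.33 to -1.15 with the correction on all 6 libraries.

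In edgeR's main fit the other genes of the pathway gave no calls either. Of 135 listed genes outside the members 133 were tested, 0 rose and 0 fell by edgeR's quasi-likelihood test, and 3 higher and 16 lower had an unadjusted p under 0.05, beside 9.98% and 7.79% of all tested genes. DESeq2 called 0 of them higher and 4 lower, where it called 477 and 229 over all tested genes, and limma voom called none. The 4 called by DESeq2 were CENPI, NCAPD3, NCAPG and LMNB1 (DESeq2 adjusted p = 0.0319, 0.0342, 0.0494 and 0.0345). Without shNC 2 there were 3 higher and 9 lower, where that fit called 7.78% of all genes higher and 4.52% lower. Without shNC 3 there were 2 lower, beside 221 lower over all tested genes. Without shPNISR 3 there was 1 higher, beside 177 higher over all tested genes. Fitted values were below 0 in 101 of the 133 and in 52.1% of all tested genes, with a median of -0.11. With the loess correction 94 of the 133 were below 0 with a median of -0.09. Over all tested genes 8931 of 16102 were then below 0 with a median of -0.03.

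Among regulators of late cell cycle transcription 16 of 19 fitted values were below 0 (median -0.20). The smallest p belonged to DYRK1A, a kinase that promotes assembly of the repressive DREAM complex (-0.31 ± 0.13, adjusted p = 0.213), and LIN54, the DNA-binding subunit of the MuvB core (-0.38 ± 0.16, adjusted p = 0.215). With the loess correction DYRK1A was at -0.10 (adjusted p = 0.733) and LIN54 at -0.26 (0.315), and without shNC 2 DYRK1A was at -0.42 and passed (0.0256). FOXM1, named after its values were seen, was at 237, 212 and 218 CPM in shNC and 230, 193 and 193 in shPNISR, and MYBL2, which encodes B-MYB and was named likewise, at 331, 355 and 319 CPM and 373, 357 and 302 CPM. In both genes the groups overlapped. Among inhibitors of mitotic entry 7 of 12 fitted values were below 0 (median -0.02), and those with the smallest p were above it. SFN, a 14-3-3 protein that holds CDK1 complexes in the cytoplasm, was at 0.38 ± 0.13 (adjusted p = 0.126) and CDKN1A, the CDK inhibitor p21, at 0.33 ± 0.11 (adjusted p = 0.129). With the loess correction SFN was at 0.13 (adjusted p = 0.593) and CDKN1A at 0.17 (0.351). SFN passed without shPNISR 3 (0.0357) and CDKN1A without shNC 2 (0.0153).

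The 16 subunits and partners of the anaphase-promoting complex had 11 fitted values below 0 and a median of -0.06, with ANAPC1, its largest subunit, at -0.34 ± 0.15 (adjusted p = 0.238) and UBE2S, which extends ubiquitin chains, at 0.22 ± 0.11 (adjusted p = 0.333). UBE2S was at 0.08 with the loess correction (adjusted p = 0.719), and ANAPC1 was at -0.47 without shNC 3 and passed (0.0367), and at -0.20 without shNC 1 (0.749). Of 25 tested kinetochore and checkpoint genes 21 were below 0 (median -0.13). CENPI, an inner kinetochore protein, averaged 57.3 ± 4.61 CPM under shNC against 42.5 ± 3.91 CPM under shPNISR (mean ± SD, n = 3 libraries, edgeR adjusted p = 0.0626), and SPC24, a partner of NDC80, at 43.0 ± 3.60 and 50.8 ± 3.25 CPM (adjusted p = 0.31). CENPI passed without shNC 2 (adjusted p = 0.00992), and with the loess correction the log2 fold change of SPC24 was 0.14 in place of 0.24. Condensin, cohesin and separase had a median of -0.24, with 14 of 16 below 0. The condensin subunits NCAPD3 and NCAPG were at -0.39 ± 0.11 and -0.36 ± 0.11 (adjusted p = 0.0626 and 0.0828). With the loess correction the median of that list was -0.14. In that fit 2 of its genes passed, NCAPD3 among them (adjusted p = 0.0418), beside 298 higher and 189 lower over all tested genes.

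Of 25 other spindle and cytokinesis genes 18 were below 0 (median -0.08), with KIF15 and KIF18B, both mitotic motors, at -0.33 ± 0.14 and -0.28 ± 0.13. With the loess correction KIF18B was at -0.43 (adjusted p = 0.0662), and it passed without shNC 2 (0.0373). Of 20 other genes that peak in G2 and mitosis 14 were below 0 (median -0.11). LMNB1, a lamin of the nuclear envelope, was at 230 ± 26.3 CPM in shNC and 174 ± 13.3 in shPNISR (edgeR adjusted p = 0.0631, and 0.0269 with the loess correction), and MELK, a mitotic kinase, was at -0.23 ± 0.11.

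For the S phase and DNA replication genes, the nearest stage of the cycle, 2 of 35 fell and 0 rose, where 0.832% of all tested genes were lower and 2.3% higher. Of the 35 fitted values 29 were below 0, against 52.1% of all tested genes, and the median was -0.12. CDC6, which loads the replicative helicase, was at 119 ± 15.1 CPM in shNC and 73.9 ± 9.03 in shPNISR (-0.69 ± 0.12, edgeR adjusted p = 0.0041), and CLSPN, the checkpoint adaptor claspin, at 67.7 ± 9.92 and 47.8 ± 5.59 CPM (-0.50 ± 0.13, adjusted p = 0.0436). Without shPNISR 3 neither passed (adjusted p = 0.0515 for CDC6 and 0.0686 for CLSPN), and CLSPN also failed without shNC 1 (0.301), shPNISR 1 (0.197) or shPNISR 2 (0.169). Over the 17 alternatives the call changed in 1 for CDC6 and in 9 for CLSPN. Among the named pathway genes, none called in the main fit, it changed most often for NCAPD3, LMNB1 and CENPI, in 6, 5 and 4. With the loess correction 34 of the 35 were below 0 (8931 of 16102 tested genes), with a median of -0.16. In that fit 3 were lower, beside 189 of all tested genes, with CDC6 (edgeR adjusted p = 0.0057) and CLSPN (0.0419) among them. Without shNC 2 there were 7 lower and 1 higher in this list, in the fit that called 4.52% of all genes lower and 7.78% higher. The difference between the S phase list and the members was not tested.

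**Figure D4:**
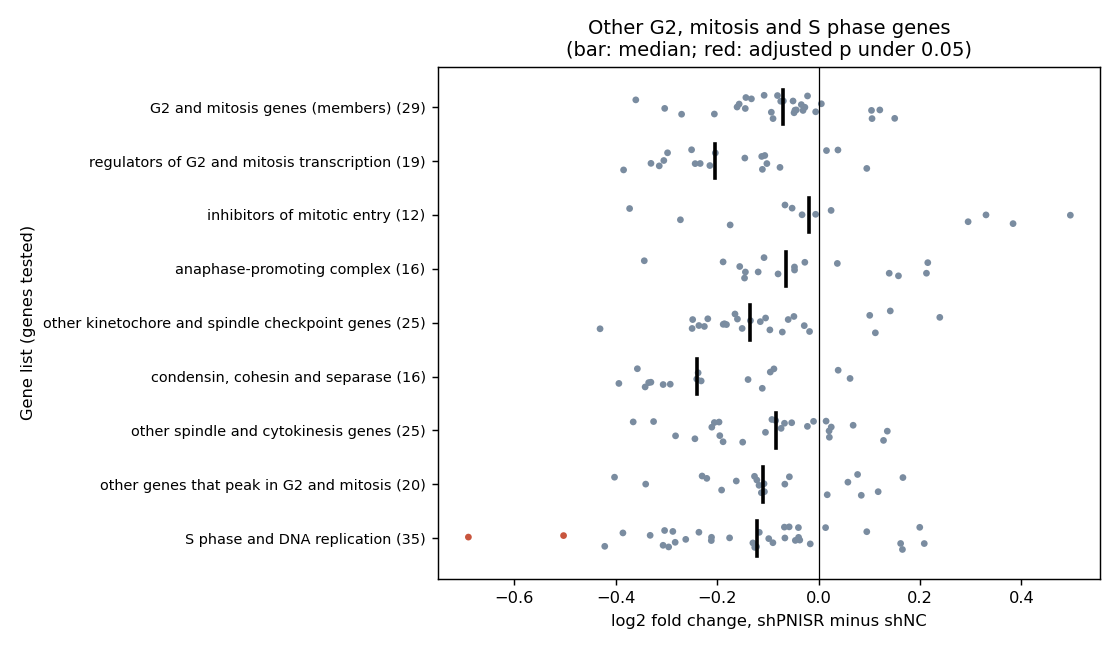
Fold change (x axis, log2 scale, shPNISR minus shNC) of each tested gene in the members and in 8 other lists (y axis, with the number tested), with a bar at each list's median and red points for genes with an adjusted p under 0.05. The medians of all 9 lists lie below 0, and the red points are CDC6 and CLSPN in the S phase list.

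Markers of cell types were read beside the label of the cells, and of the 4 marker lists the colorectal epithelial markers summed highest in every library. Colorectal epithelial markers summed to 4376 to 5006 CPM in shNC and 4901 to 6144 in shPNISR with TMM factors, ranges that overlap through shPNISR 3, and to 4410 to 4981 and 5090 to 5998 relative to library totals, ranges that do not. Of 9 tested, all with fitted values above 0, CDH17 and KRT19 rose, where 2.3% of all tested genes were higher. CDH17 passed in all 17 alternatives, while KRT19 did not pass with the loess correction (adjusted p = 0.0921) or without shNC 1 (0.169), shPNISR 1 (0.159), shPNISR 2 (0.0955) or shPNISR 3 (0.0571). With TMM factors fibroblast markers summed to 39.6 to 61.4 and 42.2 to 56.4 CPM, leukocyte markers to 5.19 to 7.13 and 8.41 to 11.0, and endothelial markers to 0.718 to 1.55 and 1.47 to 1.66, with 7 of 12, 6 of 10 and 1 of 7 markers above the low-count filter. Of these, LAPTM5 rose and LYZ fell, both under 3 CPM, beside 2.3% of all tested genes higher and 0.832% lower. COL1A1, FBN1 and VWF did not pass. Neither call held in every alternative: LAPTM5 did not pass without shNC 1 (adjusted p = 0.138) or shPNISR 1, 2 or 3 (0.0545, 0.133 and 0.0629), nor LYZ with library totals (0.0605) or without shPNISR 1, 2 or 3 (0.189, 0.0686 and 0.0564). COL1A1 passed without shNC 2 (0.00396) and FBN1 without shNC 3 (0.00593). The part of the epithelial or leukocyte differences in the values of the mitotic genes was not tested.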

How the data were processed

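RNA was sequenced from 6 HCT-8 libraries, 3 per group, matched to the table by column name. The deposited values are whole-number read counts per Ensembl gene, not normalized by the authors as far as the values show. HISAT2 2.0.4 and GRCh38 are named per the submitters' processing notes. The sources used here do not name the counter, its annotation or its strand setting. Replicate libraries differed beyond counting noise (chi-square of 9.00 to 20.2 per degree of freedom), so all were kept.

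Symbols came from a table of gene IDs (60463 of 60664 IDs matched), and positions, exon length, GC content and overlaps from GENCODE 29 on GRCh38. Genes passed edgeR's filterByExpr (minimum count 10, minimum total 15). The test of shPNISR against shNC was the robust quasi-likelihood test of edgeR 4.0.16 (R 4.3.3) with TMM factors, two-sided, with Benjamini-Hochberg adjustment over all 16102 genes at 0.05. Standard errors and 95% intervals were derived from the test. The pipeline was tested on simulated counts. Log2 CPM used a prior count of 2. Alternatives were DESeq2 1.42.0, limma 3.58.1 voom, other scalings and filters, dispersion without the robust option, a replicate block, each library left out, and a loess correction (span 0.4) for GC content and exon length. Added after seeing the data was that correction without shNC 2. Members and lists were chosen with earlier results of these data known. Named genes are all members, PNISR, and the 2 genes of each other list with the smallest p; exceptions are marked. Figures were drawn with matplotlib 3.10.9. Splicing was not analysed here.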

Additional observations from a re-analysis of the deposited data

How the results depend on the processing

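PNISR kept its call in all 17 alternatives. Of 493 member values under the alternatives, 448 kept their direction and their side of the threshold, 1 passed it (CCNA2 without shNC 2), and 44 values of 17 members changed sign without a call, none further from 0 than 0.19. Causes were not tested. Genes called higher and lower over all tested genes numbered 275 and 71 with library totals, 642 and 354 with no low-count filter, 477 and 229 with DESeq2, and 1166 and 1341 with the loess correction for GC and length without shNC 2; leaving out 1 library gave 133 to 1284 higher and 30 to 746 lower. Among members, leaving out 1 library gave 0 to 1 lower. Among other pathway genes it gave 0 to 3 higher and 0 to 9 lower, no low-count filter gave 3 lower, DESeq2 4, the correction 3, and the correction without shNC 2 gave 2 higher and 14 lower. S phase genes lower numbered 1 with limma voom, no robust dispersion, library totals, upper-quartile factors or a mean filter at 1 CPM, 4 with no low-count filter, 11 after the correction without shNC 2, and 0 to 7 with 1 library left out, with 0 to 1 higher.

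On the log2 scale, sign changes were BUB1B 0.0011 and TPX2 0.017 with upper-quartile factors, CDC25B -4.8e-05 with library totals and -0.0010 with no low-count filter. With the loess correction they were CDK1 0.093, CDC25B -0.15, AURKB -0.035, BUB1 0.057, BUB1B 0.032, CENPE 0.040, KIF11 0.013, HMMR 0.082, CDC20 -0.074 and TOP2A 0.080. With that correction and without shNC 2 they were CDK1 0.059, CDC25B -0.19, AURKB -0.044, BUB1 0.11, BUB1B 0.053, TTK 0.12, CENPE 0.094, NDC80 0.012, TPX2 0.020, KIF11 0.034, HMMR 0.12, CDC20 -0.12 and TOP2A 0.14. With 1 library left out, ranges were CENPA -0.14 to 0.049, CDK1 -0.12 to 0.10, BUB1 -0.074 to 0.013, BUB1B -0.099 to 0.053, CCNB2 -0.12 to 0.021, CDC25B -0.012 to 0.040, PLK1 -0.13 to 0.044, TPX2 -0.051 to 0.060, UBE2C -0.13 to 0.020, HMMR -0.12 to 0.10 and TOP2A -0.12 to 0.0047.

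The labels do not say whether equal replicate numbers pair the libraries. Deviations from the group means correlated at 0.12, -0.08 and -0.15 between libraries of equal number, and 2 of 6 libraries correlated best with their own number. With 3 libraries per group, these values cannot decide whether the libraries were paired. With the replicate number as a block 0 members passed, and 390 genes were higher and 118 lower.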

Other observations

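PRC1, which crosslinks microtubules of the central spindle, was another mitotic gene with very few counts beside a gene on its own strand. It had 20, 3 and 8 counts in shNC and 4, 11 and 7 in shPNISR and did not pass the low-count filter, and 57.6% of its exon length in GENCODE 29 belongs also to AC068831.7, which had 52 to 102 counts per library. MAD1L1, a spindle checkpoint protein, had 2 to 6 counts per library with no exon shared with another gene in that annotation. These genes were chosen after their values were seen.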
